A study of Mus musculus with 12 samples.

Results

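The genes described here are the BMP and TGF-beta signalling genes: 57 of the 23079 genes in the count table. They were chosen by symbol. A row entered when its name was Bmp, Smad, Gdf or Tgfb followed by a digit, when it began with Bmpr, Acvr, Tgfbr or Inhb, or when it was Nog, Chrd, Grem1, Fst, Smurf1 or Smurf2. The rule itself uses no measured value, but the genes were chosen with earlier results of these data known. The symbols brought in 4 genes whose products are no ligand, receptor, Smad, secreted antagonist or Smurf ubiquitin ligase. These are Bmp1, Bmp2k, Tgfb1i1 and Tgfbrap1. They are described apart below, but they are included in every count of the 57 genes and of those tested.

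Both groups were dopaminergic neurons of C57BL/6 mice, one from the substantia nigra pars compacta (SNpc) and one from the neighbouring ventral tegmental area (VTA). SNpc neurons are the population that is lost first in Parkinson disease. RNA came from TRAP, in which a tagged ribosomal protein made in a chosen cell type is pulled down together with the RNA on its ribosomes. The promoter that drove the tag, the animals behind each library, their age and their sex are not stated in the sources used here, and no allele or treatment is named for either group. After identical columns had been merged, 5 SNpc libraries (numbered 1, 2, 3, 4 and 6) and 5 VTA libraries (1, 2, 4, 5 and 6) were compared. Nothing in the labels says that they came from separate animals, and the spread behind each p-value may thus be technical.

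Ligands of this superfamily are secreted dimers that bring together type II and type I receptor kinases on the cell surface. Type I receptors of the BMP branch phosphorylate Smad1, Smad5 and Smad9, whereas those of the TGF-beta and activin branch phosphorylate Smad2 and Smad3. Either kind of Smad joins Smad4 and enters the nucleus, while Smad6 and Smad7, together with the ubiquitin ligases Smurf1 and Smurf2, restrain the pathway. In the midbrain, TGF-beta and BMP signals are known for their part in the development and survival of dopaminergic neurons.

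Promoters of 3 of the genes that differed between the regions are shown because Smad proteins bind DNA at short words. Each is the 250 bases before the gene start from RefSeq, on GRCm38.p6 and in the direction of transcription. The windows are chr11:106920716-106920965 on the minus strand for Smurf2, chr2:48813859-48814108 on the plus strand for Acvr2a and chr1:186705990-186706239 on the minus strand for Tgfb2. Capitals mark CAGAC, the Smad-binding word, and GGCGCC, a GC-rich word bound by Smads, each searched on both strands, so that GTCTG is CAGAC read from the other strand.
Smurf2: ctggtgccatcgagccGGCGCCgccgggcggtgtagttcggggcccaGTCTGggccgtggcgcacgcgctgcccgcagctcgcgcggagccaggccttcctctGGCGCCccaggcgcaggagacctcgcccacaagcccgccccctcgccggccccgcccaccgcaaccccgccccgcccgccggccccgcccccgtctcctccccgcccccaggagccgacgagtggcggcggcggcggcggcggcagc
Acvr2a: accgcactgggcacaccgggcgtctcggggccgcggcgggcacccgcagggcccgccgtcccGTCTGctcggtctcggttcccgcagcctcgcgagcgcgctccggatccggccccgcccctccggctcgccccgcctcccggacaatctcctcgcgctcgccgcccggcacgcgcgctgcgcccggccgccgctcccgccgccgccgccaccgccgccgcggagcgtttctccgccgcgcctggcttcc
Tgfb2: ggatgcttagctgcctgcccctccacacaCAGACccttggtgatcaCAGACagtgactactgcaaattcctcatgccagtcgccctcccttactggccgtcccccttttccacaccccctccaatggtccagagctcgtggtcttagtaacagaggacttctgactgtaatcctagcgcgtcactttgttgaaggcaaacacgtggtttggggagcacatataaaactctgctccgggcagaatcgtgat
The Smurf2 window held 1 CAGAC and 2 GGCGCC, the Acvr2a window 1 CAGAC and the Tgfb2 window 2 CAGAC. The 3 printed windows thus all held CAGAC. Those of Smad3, Smad6, Inhba, Acvr1c, Bmpr1a and Bmp2k, also higher in VTA, held none. Windows were found for 40 of the 57 genes, some with more than 1 start, 49 windows in all. CAGAC was in 46.9% of these windows and in 42.2% of all 32851 RefSeq windows. CAGAC was in 6 of the 15 windows of the genes higher in VTA (40.0%) and in 13 of the 26 windows of genes that were tested and not called. GGCGCC was in 22.4% of the members' windows against 9.59% of all windows, in 26.7% of the windows of genes higher in VTA and in 26.9% of those not called. The palindrome GTCTAGAC, which shares no whole word with the other motifs, was in 0 of the members' windows and in 0.167% of all windows. Neither short word was more frequent in the windows of the genes higher in VTA than in those not called.

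In the plot of fold changes, most of these genes lay on the VTA side. Of the 57 genes, 49 had enough counts to be tested. Higher levels in VTA were called for 15 of them (30.6%, against 20.4% of all genes tested), and a higher level in SNpc for 1 (2.04%, against 17.8% of all genes). The 15 include Bmp2k, which was matched by name only and whose value is uncertain, as described below. A call here is a Benjamini-Hochberg adjusted p under 0.05 over 15685 genes in edgeR's quasi-likelihood test. The other 33 were not called. Without SNpc library 4 and VTA library 1, which differed from the rest in markers of other cells, 13 were called higher in VTA and 1 higher in SNpc. Of all 15639 genes tested then, 2990 were called higher in VTA and 2948 higher in SNpc. The median log2 fold change, always SNpc minus VTA, was -0.70 for the 49 genes and -0.04 for all genes tested, and 41 of the 49 were below 0. At least 2-fold higher levels in VTA were called for 13 of the 49 (26.5%, against 10.2% of all genes), and at least 2-fold higher levels in SNpc for 0 (0.803% of all genes). The libraries of the regions did not overlap in 13 of the 49 genes (26.5%), a share like that of all genes tested (26.6%). All 13 were called, and among all genes called 4034 of 5996 separated in this way.

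**Figure D1:**
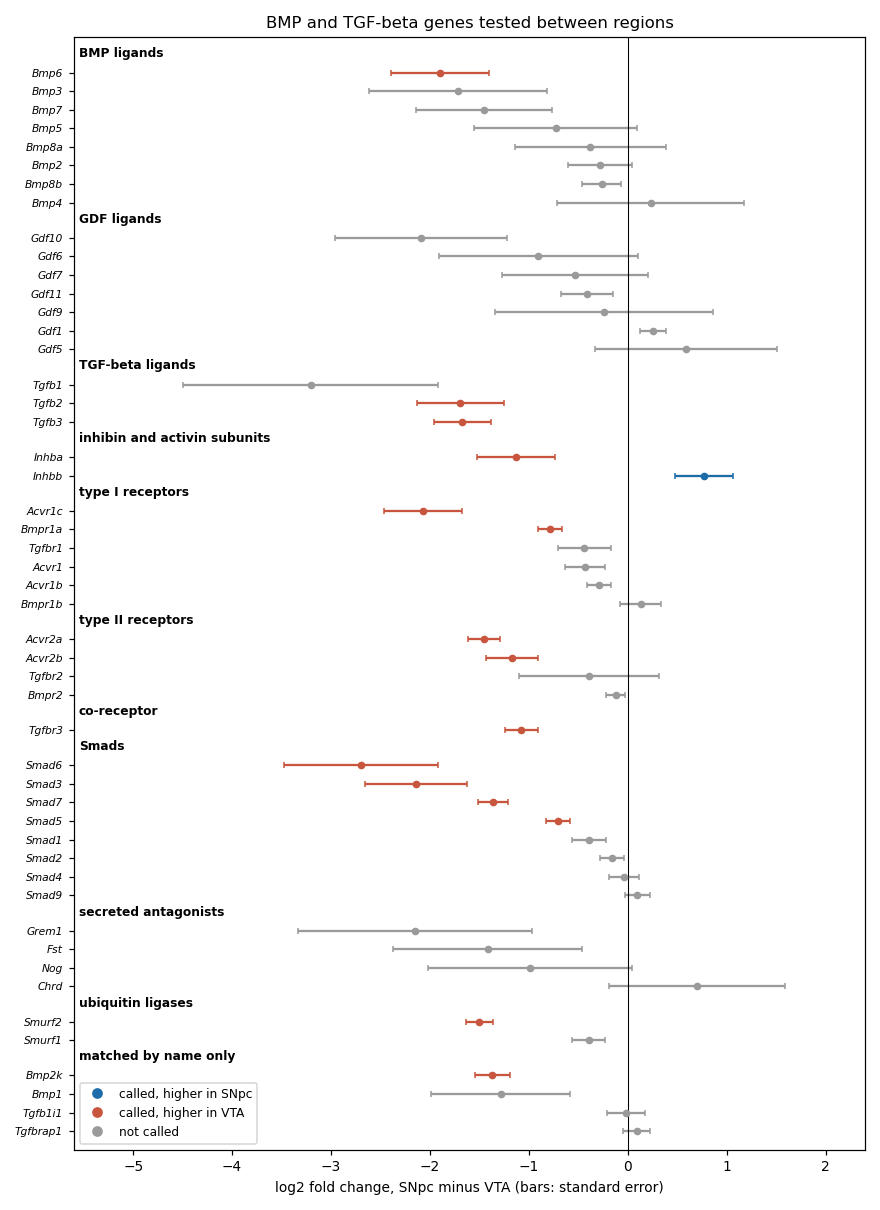
Log2 fold change (x axis, SNpc minus VTA) of the 49 genes tested, in rows by role, with bars of 1 standard error. The 15 genes called higher in VTA lie left of 0, and Inhbb alone is called on the SNpc side. The widest bars, such as those of Grem1 and Tgfb1, belong to genes not called. Smad6 was called with a standard error of 0.78.

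Transcript length moved with these differences and has to be read beside them. Among all genes with a transcript length, 4.83% of the shortest of 5 equal length classes and 48.4% of the longest were higher in VTA. The genes of the pathway are long, with a median of 4.06 kb against 3.18 kb for all genes tested, and 18 of the 49 fell in the longest class. Of those 18, 8 were higher in VTA, a share no higher than the 48.4% of all genes in that class. The shares of all genes set beside the 49 above do not allow for length. When the trend on length and GC content was removed from each library, 14 of the 15 calls higher in VTA held and that of Inhba was lost. Calls higher in SNpc rose to 4, with Bmpr2, Smad9 and Tgfbrap1 beside Inhbb. The background was then 16.2% higher in VTA and 14.9% higher in SNpc. What produced the length trend was not tested.

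The libraries carried the markers of dopaminergic neurons throughout. Total counts ran from 62356964 to 81393907. The summed level of 9 dopaminergic markers was 9627 to 13986 CPM, counts scaled to the library size, in SNpc and 4911 to 8052 in VTA, with 8 of the 9 higher in SNpc and Slc6a3, the dopamine transporter, the most abundant. Genes listed as markers of other cell types also had counts. Glutamate neuron markers, led by Slc17a6, summed to 29.7 to 91.7 CPM in SNpc and 117 to 164 in VTA, with 4 of 6 higher in VTA. Whether this RNA came from the dopaminergic neurons themselves or from other cells was not tested. Astrocyte markers, led by Slc1a2, summed to 442 to 692 and 617 to 776 CPM, with 2 of 9 higher in VTA. Slc1a2 made up most of this sum, with means of 276 CPM in SNpc and 470 in VTA. Its call ended after the length correction (edgeR adjusted p = 0.126), while that of Slc1a3 held (0.0448). Markers of oligodendrocyte precursors, led by Olig1, summed to 19.6 to 66.1 and 48.5 to 72.7 CPM, with 3 of 6 higher in VTA. Microglial markers, led by P2ry12, summed to 14.98 to 40.5 and 37.2 to 54.4 CPM (2 of 8 higher in VTA). Most of this sum was P2ry12 alone, with means of 19.1 CPM in SNpc and 35.4 in VTA. Oligodendrocyte markers, led by Mbp, ran from 272 to 1369 CPM in SNpc, the highest in library 4, and from 683 to 859 in VTA (0 of 8 called). In VTA library 1, endothelial markers (led by Flt1) summed to 94.0 CPM, fibroblast markers (led by Igf2) to 145 and pericyte markers (led there by Acta2, at 14.4) to 44.1. The other VTA libraries reached at most 8.81, 18.5 and 16.2 CPM, and the SNpc libraries 10.4, 29.6 and 18.7. Of the markers tested in these lists, 2 of 5, 2 of 6 and 1 of 6 were called higher in VTA. The pericyte marker called was Pdgfrb, the most abundant of its list over all libraries. It was at 3.98 to 6.40 CPM in the VTA libraries and at 0.250 to 1.13 CPM in the SNpc libraries. Some markers were at 0 in at least 1 library, namely Cldn5 of endothelial cells, Kcnj8 of pericytes, Col3a1 and Lum of fibroblasts, C1qa of microglia, Slc17a8 of glutamate neurons and Ccdc153 and Tmem212 of ependyma. Ependymal markers, led by Rarres2, summed to 20.1 to 26.1 and 21.1 to 30.01 CPM (0 of the 3 tested were called). In such pooled RNA, fewer cells of a type and less RNA per cell cannot be told apart.

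Of the ligands, Tgfb2, Tgfb3 and Bmp6 were higher in VTA, with log2 fold changes of -1.67 to -1.90, and the activin subunits parted, with Inhba higher in VTA and Inhbb higher in SNpc. Levels are CPM scaled by the trimmed mean of M values (TMM), listed in the order of the library numbers. Tgfb3 (Entrez 21809, chr12:86056745-86079041), a TGF-beta ligand, was at 3.17, 7.30, 5.32, 4.34 and 2.41 CPM in SNpc and at 19.4, 10.5, 13.5, 11.2 and 17.2 CPM in VTA. Every VTA library lay above every SNpc library. The means were 4.51 ± 1.92 and 14.4 ± 3.82 (SD, n = 5 each), a log2 fold change of -1.67 ± 0.29 (standard error) with an edgeR adjusted p of 0.00026.

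Tgfb2 (Entrez 21808, chr1:186622792-186705989), the ligand whose promoter is printed above, was at 1.78, 1.08, 1.02, 4.72 and 0.906 CPM in SNpc and at 6.30, 7.01, 6.25, 6.27 and 4.88 CPM in VTA. The groups did not overlap, but SNpc library 4 came close to the lowest VTA library. The means of 1.90 ± 1.61 and 6.14 ± 0.772 gave a log2 fold change of -1.69 ± 0.44 (edgeR adjusted p = 0.00591). Without SNpc library 4, which also had the highest oligodendrocyte sum, the log2 fold change was -2.30 (adjusted p = 1.05e-04). The part of oligodendrocyte RNA in this value was not tested. Tgfb1, the ligand made by many immune and vascular cells, was at 0 to 0.219 CPM in SNpc and 0 to 1.58 CPM in VTA, and its log2 fold change of -3.21 was not called (adjusted p = 0.0586).

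Bmp6 (Entrez 12161, chr13:38345107-38500302), a BMP ligand, was at 1.92, 0.603, 1.08, 1.28 and 0.275 CPM in SNpc and at 4.54, 4.02, 4.31, 2.45 and 3.92 CPM in VTA, again without overlap. Its means were 1.03 ± 0.636 and 3.85 ± 0.818, and the log2 fold change was -1.90 ± 0.50 (edgeR adjusted p = 0.00627). With the summed astrocyte and oligodendrocyte markers as a covariate it was -1.74 with an adjusted p of 0.0585. Of its exonic bases, 5.74% overlap Txndc5 on the other strand, which was not called. The other 7 BMP ligands tested were not called. Bmp2 and Bmp8b were the most abundant of them, at 6.60 ± 2.25 and 8.06 ± 0.722 CPM in SNpc and 8.03 ± 3.49 and 9.67 ± 1.64 CPM in VTA. Bmp3, Bmp4, Bmp5 and Bmp8a stayed under 2 CPM in every SNpc library. Bmp7 reached 8.82 CPM in VTA library 1 and at most 1.94 CPM in any other library, and was not called (log2 fold change -1.45, adjusted p = 0.106).

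None of the GDF ligands was called. Gdf1 (Entrez 14559, chr8:70329817-70331587), a relative of the nodal ligands, had the highest level per kilobase of transcript of all 57 genes, at 28.6 CPM per kb in SNpc and 24.0 in VTA. It was at 38.0, 46.3, 39.6, 30.4 and 38.8 CPM in SNpc and at 30.04, 31.9, 38.5, 29.4 and 32.0 CPM in VTA. The groups overlapped, and the log2 fold change was 0.25 ± 0.13 (edgeR adjusted p = 0.142). Without SNpc library 4 it was 0.39 and called (adjusted p = 0.0234). All of its exonic bases (100%) also belong to Cers1, a ceramide synthase on the same strand, so this level cannot be given to Gdf1 alone. Gdf11 was at 6.09 ± 2.04 CPM in SNpc and 8.10 ± 1.95 in VTA, and Gdf5, Gdf6, Gdf7, Gdf9 and Gdf10 had means under 1.5 CPM in both regions.

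Inhba and Inhbb encode the beta subunits of activins A and B. Inhbb (Entrez 16324, chr1:119415465-119422248) was at 8.27, 11.8, 5.70, 12.3 and 7.04 CPM in SNpc and at 8.22, 4.97, 3.05, 5.81 and 4.42 CPM in VTA. The highest VTA library lay inside the SNpc range. The means of 9.02 ± 2.92 and 5.29 ± 1.92 gave a log2 fold change of 0.77 ± 0.29 (edgeR adjusted p = 0.0481). On the scale of library totals Inhbb was not called (adjusted p = 0.077), nor was it when SNpc library 1, 2 or 4 or VTA library 2, 4, 5 or 6 was left out (0.0649 to 0.12). After removal of the length trend it was 1.06 with an adjusted p of 0.0116. Inhba had means of 1.78 ± 0.525 and 3.88 ± 1.46 CPM with overlapping groups, and its log2 fold change of -1.13 (adjusted p = 0.0323) lost its call in 13 of 21 alternatives, among them the length correction (-0.90, adjusted p = 0.107), the glial covariate (0.115) and leaving out SNpc library 1, 3, 4 or 6 or VTA library 1, 5 or 6 (0.0503 to 0.115). The log2 ratio of Inhba to Inhbb separated the regions in all libraries, at -2.82 to -1.54 in SNpc and -1.30 to 0.46 in VTA.

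Among receptors, the activin type II receptors and Acvr1c were higher in VTA, while Bmpr2, the receptor with the highest CPM before division by length, was not called. Acvr2a (Entrez 11480, chr2:48814109-48903269), a type II receptor for activins, was at 27.7, 27.5, 23.2, 16.3 and 32.1 CPM in SNpc and at 69.7, 74.8, 63.1, 82.5 and 56.6 CPM in VTA. The lowest VTA library stood well above the highest SNpc library. Its means were 25.4 ± 5.95 and 69.3 ± 10.05, with a log2 fold change of -1.45 ± 0.16 (edgeR adjusted p = 4.69e-06). An overlap with Orc4 on the other strand covers 7.84% of its exonic bases, and Orc4 was not called. Acvr2b, the other activin type II receptor, was at 4.13 ± 1.54 CPM in SNpc and 9.31 ± 0.91 in VTA without overlap (log2 fold change -1.17, adjusted p = 0.00241).

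Acvr1c (Entrez 269275, chr2:58267453-58357895) encodes ALK7, a type I receptor of the activin and nodal branch. It was at 0.970, 1.24, 1.57, 4.51 and 2.14 CPM in SNpc and at 7.42, 12.9, 9.66, 5.76 and 8.17 CPM in VTA. No library of either region crossed into the other, with SNpc library 4 the nearest. The means of 2.08 ± 1.42 and 8.78 ± 2.70 gave a log2 fold change of -2.07 ± 0.39 (edgeR adjusted p = 0.000579), and after the length correction it was -1.66 (adjusted p = 0.00271). Its close relative Acvr1b, which encodes ALK4, was far more abundant per kilobase in SNpc (14.3 against 0.227 CPM per kb). Acvr1b was at 69.1, 68.2, 71.0, 47.8 and 58.7 CPM in SNpc and at 71.8, 69.6, 82.0, 78.0 and 83.7 CPM in VTA. These groups overlapped, and the log2 fold change of -0.29 ± 0.12 was not called (edgeR adjusted p = 0.0616). It was called in 4 of 21 alternatives, with the glial covariate at -0.48 (adjusted p = 0.00896).

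Bmpr1a, a type I receptor for BMPs, was higher in VTA at 65.4 ± 4.93 CPM against 38.0 ± 5.48 in SNpc, with no overlap (log2 fold change -0.78, adjusted p = 9.15e-05). Its paralog Bmpr1b was at 9.23 ± 2.19 and 10.1 ± 1.06 CPM and was not called. Tgfbr3, the betaglycan co-receptor that presents TGF-beta ligands, was also higher in VTA, at 24.2 ± 4.60 against 11.5 ± 1.47 CPM (log2 fold change -1.08, adjusted p = 0.000101). The core TGF-beta receptors were not called, with Tgfbr1 at 22.8 ± 3.19 CPM in VTA and 16.9 ± 8.003 in SNpc, and Tgfbr2 at 2.79 ± 2.29 and 2.13 ± 2.20 CPM. Acvr1, a BMP type I receptor, was at 19.1 ± 4.61 in VTA and 14.1 ± 3.04 CPM in SNpc and was not called. Acvrl1, a receptor of endothelial cells, had too few counts to be tested, and its highest level, 2.75 CPM, was in VTA library 1, the library with the highest endothelial sum. The part of endothelial RNA in that level was not tested.

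Bmpr2 (Entrez 12168, chr1:59763400-59879014), the BMP type II receptor, was at 138, 115, 134, 134 and 156 CPM in SNpc and at 164, 145, 134, 141 and 152 CPM in VTA. The groups overlapped widely. Its means were 135 ± 14.5 and 147 ± 11.7, and the log2 fold change of -0.12 ± 0.10 was not called (edgeR adjusted p = 0.35). Its transcript is long, at 12.9 kb, and removal of the length trend turned the direction to 0.38, called higher in SNpc (adjusted p = 0.00376). No direction is therefore given for Bmpr2.

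**Figure D2:**
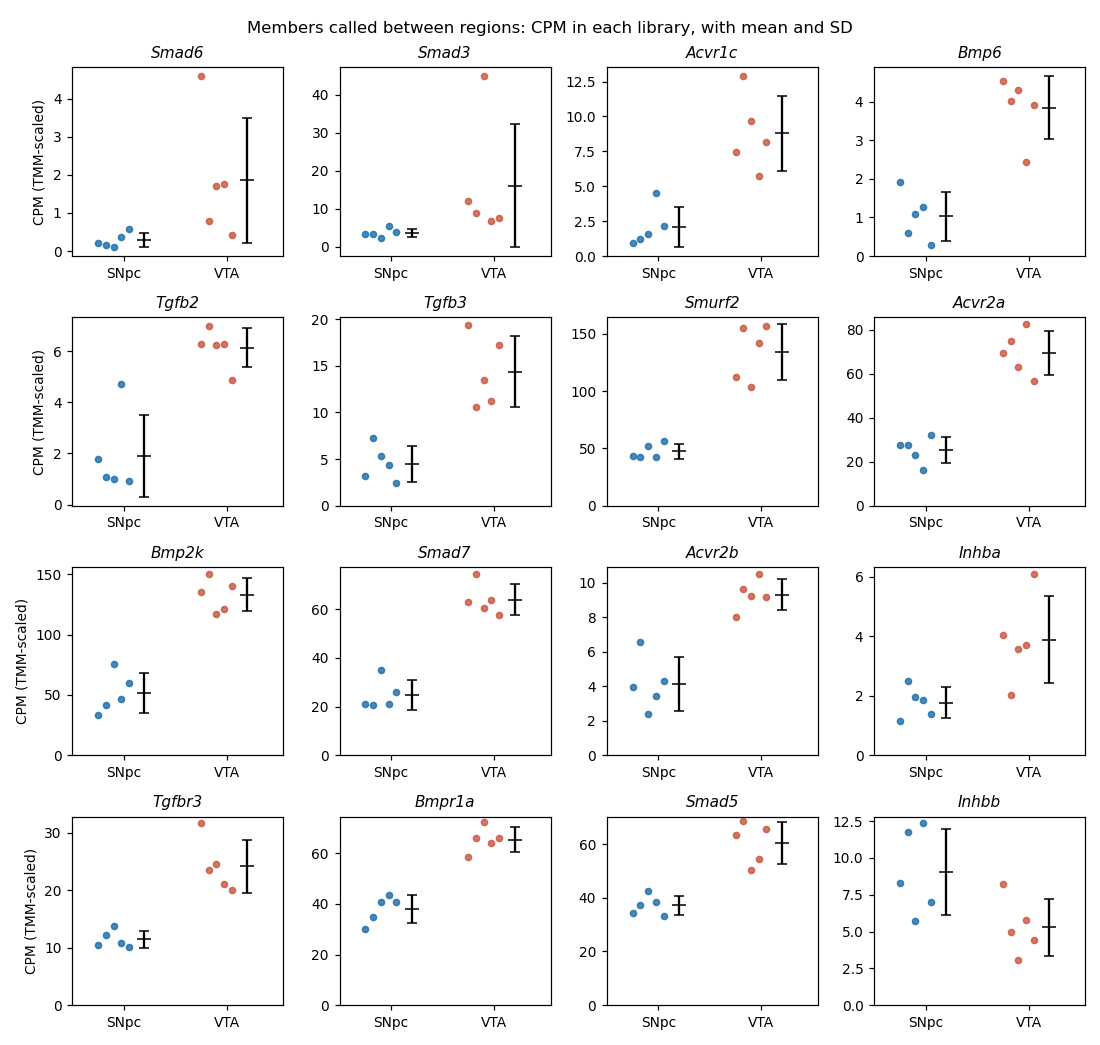
CPM in each library (points, in the order of the library numbers) for the 16 called genes, each panel with its own linear y axis, with the mean and SD of 5 libraries beside the points. Panels such as Smurf2, Acvr2a and Smad7 show separate regions, whereas Smad6, Inhba and Inhbb overlap and Smad3 has a VTA library at 44.9 CPM.

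Of the Smads, the inhibitory Smad7 and Smad6, the TGF-beta branch Smad3 and the BMP branch Smad5 were higher in VTA. Their partners Smad1, Smad2, Smad4 and Smad9 were not called. Smad7 was at 21.2, 20.5, 35.0, 21.0 and 25.98 CPM in SNpc and at 62.9, 74.5, 60.6, 63.5 and 57.6 CPM in VTA. All VTA libraries were above all SNpc libraries. With means of 24.7 ± 6.15 and 63.8 ± 6.42, its log2 fold change was -1.37 ± 0.15 (edgeR adjusted p = 4.08e-06).

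Smad6 (Entrez 17130, chr9:63953076-64022059) was far less abundant, at 0.223, 0.147, 0.110, 0.365 and 0.582 CPM in SNpc and 4.60, 0.798, 1.70, 1.75 and 0.425 CPM in VTA. VTA library 6 lay inside the SNpc range and VTA library 1 stood highest. The means were 0.285 ± 0.193 and 1.85 ± 1.64, with a log2 fold change of -2.69 ± 0.78 (edgeR adjusted p = 0.0115). Without VTA library 1, the library with the highest endothelial, fibroblast and pericyte sums, the log2 fold change was -2.03 and no longer called (adjusted p = 0.0675). Together with SNpc library 4 left out it was -2.08 (0.0714), and with the glial covariate -2.18 (0.183). The part of vascular RNA in this value was not tested.

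Smad3 (Entrez 17127, chr9:63646767-63757994) was at 3.37, 3.36, 2.33, 5.39 and 3.74 CPM in SNpc and at 12.04, 8.95, 44.9, 6.72 and 7.58 CPM in VTA. The regions did not overlap, and VTA library 4 was several times above the others. Means of 3.64 ± 1.11 and 16.0 ± 16.3 gave a log2 fold change of -2.14 ± 0.51 (edgeR adjusted p = 0.00565). Without VTA library 4 it was -1.28 and still called (adjusted p = 0.0037). With the glial covariate it was -1.68 and not called (0.0811).

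Smad2 (Entrez 17126, chr18:76241580-76310963), which serves the same branch as Smad3, was at 116, 75.8, 84.2, 108 and 104 CPM in SNpc and at 118, 112, 113, 93.0 and 110 CPM in VTA. These overlapping values gave a log2 fold change of -0.16 ± 0.12 (edgeR adjusted p = 0.309). Smad5 had means of 37.2 ± 3.63 CPM in SNpc and 60.5 ± 7.75 in VTA without overlap (log2 fold change -0.70, adjusted p = 0.000238). The other BMP Smads, Smad1 and Smad9, were at 25.9 ± 6.01 and 46.9 ± 6.58 CPM in SNpc and at 33.9 ± 6.73 and 43.9 ± 4.56 CPM in VTA. The shared partner Smad4 was at 21.0 ± 3.75 and 21.6 ± 1.32 CPM, a log2 fold change of -0.04 ± 0.15.

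Smurf2 had the smallest p of the 57 genes. Smurf2 (Entrez 66313, chr11:106820066-106920715), a ubiquitin ligase that binds Smad7 and marks receptors and Smads for breakdown, was at 43.5, 42.4, 52.0, 42.7 and 56.3 CPM in SNpc and at 112, 155, 104, 142 and 157 CPM in VTA. Its lowest VTA library was far above its highest SNpc library. The means of 47.4 ± 6.37 and 134 ± 24.6 CPM gave a log2 fold change of -1.50 ± 0.13 (edgeR adjusted p = 4.92e-07), and after the length correction it was -1.28 (9.14e-07). Smurf1, its paralog, was at 36.2 ± 6.94 and 47.6 ± 10.96 CPM and was not called (log2 fold change -0.39, adjusted p = 0.0726).

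The secreted antagonists, which bind ligands outside the cell, were all scarce and none of the 4 was called. Nog and Chrd bind BMPs and were at 0.232 ± 0.246 and 0.554 ± 0.357 CPM in SNpc and at 0.462 ± 0.257 and 0.341 ± 0.275 CPM in VTA. Grem1, also a BMP antagonist, was at 0 to 0.235 CPM in SNpc and at 0.088 to 0.467 CPM in VTA. Fst, the activin-binding follistatin, was at 0.175, 0.147, 0.0783, 0.0152 and 1.60 CPM in SNpc and at 1.41, 0.633, 1.33, 1.20 and 0.821 CPM in VTA. SNpc library 6 stood above all VTA libraries, the other SNpc libraries below them. With it the log2 fold change was -1.42 (edgeR adjusted p = 0.262), and without it -3.36 (0.00895).

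Bmp2k, a protein kinase related to endocytic kinases and named for its induction by BMP2, was the only called gene among those matched by name only. Bmp2k (Entrez 140780, chr5:96997689-97091867) was at 33.6, 41.7, 75.4, 46.8 and 59.8 CPM in SNpc and at 135, 150, 117, 121 and 140 CPM in VTA, without overlap. The means of 51.5 ± 16.4 and 133 ± 13.6 gave a log2 fold change of -1.37 ± 0.17 (edgeR adjusted p = 2.22e-05). Of its exonic bases 14.0% are shared with Paqr3 on the other strand, itself higher in VTA (log2 fold change -1.28, adjusted p = 1.41e-06), so the value of Bmp2k is uncertain. Bmp1, a protease that cleaves procollagen and chordin, was at 0.621 ± 0.506 and 1.52 ± 0.861 CPM. Tgfb1i1 and Tgfbrap1 were at 16.6 ± 4.80 and 40.9 ± 7.62 CPM in SNpc and at 16.9 ± 2.48 and 38.5 ± 4.22 CPM in VTA. None of these 3 was called.

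The 8 genes that were not tested had few or no counts. Bmp10 and Inhbe had 0 counts in every library, which allows up to 3 counts per library, or 0.0369 to 0.0481 CPM. Bmp15, Gdf2, Gdf15 and Inhbc were at most at 0.277 CPM in any library. Gdf3 reached 1.60 CPM in VTA library 6 and Acvrl1 2.75 CPM in VTA library 1. Such limits cover counting error only. Among the tested genes precision went with the level. The 22 genes with a mean of at least 10 CPM in a region had a median standard error of 0.16 on the log2 scale and 9 calls, all higher in VTA. Of all genes tested, at any level, 20.4% were called higher in VTA. The 10 genes under 1 CPM in both regions had a median standard error of 0.98 and 0 calls, so differences of 2-fold were not detectable there.

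**Figure D3:**
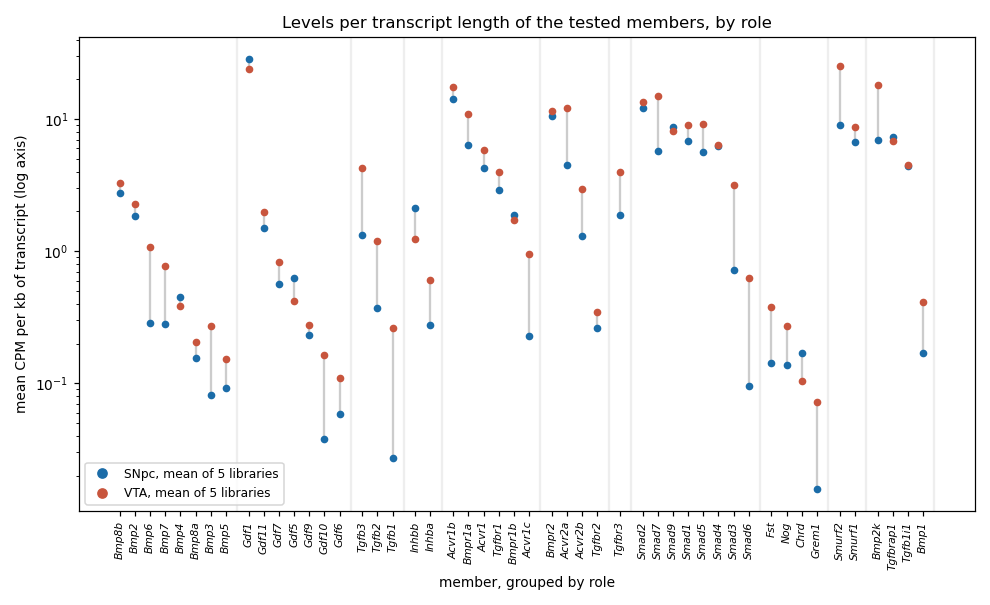
Mean CPM per kilobase of transcript (y axis, log scale) in SNpc and VTA for the 49 genes tested, grouped by role, each point the mean of 5 libraries. Gdf1, Acvr1b, Smad2 and Bmpr2 lie above 10 CPM per kb in both regions, and the secreted antagonists lie below 0.4 CPM per kb.

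Levels were compared per kilobase. In SNpc the order was Gdf1 at 28.6, Acvr1b at 14.3, Smad2 at 12.1 and Bmpr2 at 10.5 CPM per kb, followed by Smurf2 at 8.96 and Smad9 at 8.74. In VTA Smurf2 came first at 25.3, then Gdf1 at 24.0, Bmp2k at 17.98, Acvr1b at 17.4, Smad7 at 14.9, Smad2 at 13.5, Acvr2a at 12.2 and Bmpr2 at 11.4 CPM per kb. Smad7 and Acvr2a were at 5.78 and 4.46 CPM per kb in SNpc. Ligands other than Gdf1 stayed below 5 CPM per kb in both regions, with Tgfb3 the highest at 4.25 in VTA. Some receptors and Smads were as low as or lower than these ligands, among them Smad6 at 0.096 and 0.624, Acvr1c at 0.227 and 0.958 and Tgfbr2 at 0.263 and 0.345 CPM per kb in SNpc and VTA. Neighbouring values in these orders were not tested against each other.

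Related genes were also compared as ratios within each library. For 12 pairs, picked with their values known, the log2 ratio was compared between regions by a two-sided exact permutation test over the libraries, whose smallest p is 0.00794. Most pairs set a gene called between the regions against a relative that was not called, so small p-values were largely fixed by the choice. Because of that choice the p-values are given as a description. Acvr2a relative to Bmpr2 was at -3.04 to -2.07 in SNpc and -1.43 to -0.78 in VTA, a difference of -1.35 (exact p = 0.00794, adjusted over the 12 pairs 0.0136). Differences with the same p were found for Smad3 to Smad2 (-1.60), Smad7 to Smad4 (-1.34), Smurf2 to Smurf1 (-1.10), Bmpr1a to Bmpr1b (-0.95), Smad5 to Smad9 (-0.79) and Inhba to Inhbb (-1.87). Acvr1c to Acvr1b differed by -1.94 (exact p = 0.0159, adjusted 0.0238), and here SNpc library 4 overlapped the VTA range. For 4 pairs the test found no difference: Smad5 to Smad1 (-0.30, exact p = 0.183), Smad6 to Smad7 (-1.08, 0.19), Acvr2a to Acvr2b (-0.23, 0.349) and Tgfb3 to Tgfb2 (0.25, 0.667). With 5 libraries against 5 this does not show that these pairs moved alike.

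**Figure D4:**
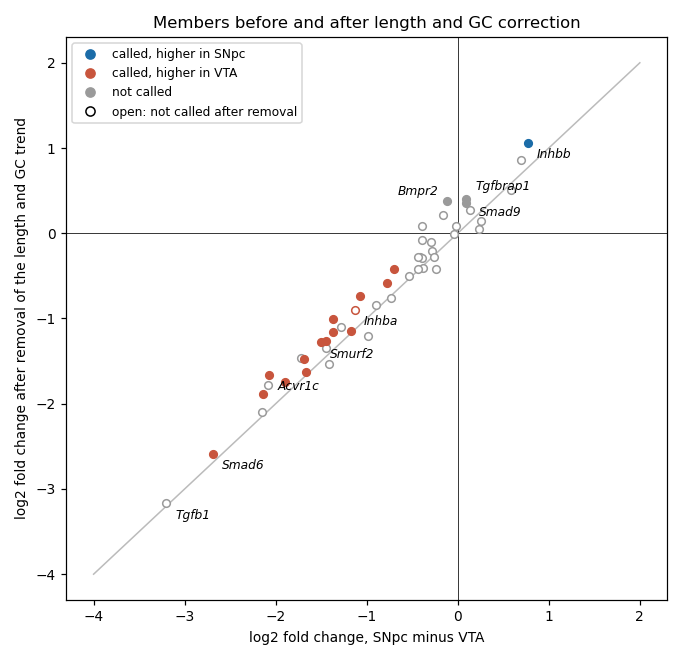
Log2 fold change (SNpc minus VTA) of the 49 genes before (x axis) and after (y axis) removal of the length and GC trend, with the line of equal values. Points lie mostly on or above the line, colours give the call before removal and open points were not called after it. Inhba lost its call, while Bmpr2, Smad9 and Tgfbrap1 gained one on the SNpc side.

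Other genes of the pathway were described in the same way. Of 90 genes found from a list of 92, which was also chosen with earlier results of these data known, 74 were tested. Of these 30 were higher in VTA (40.5%, against 20.4% of all genes), 6 were higher in SNpc (8.11%, against 17.8%) and 38 were not called, with a median log2 fold change of -0.60. With the glial covariate 3 were higher in SNpc and 22 higher in VTA, against 1880 and 2474 of all 15685 genes. Without VTA library 1, 25 were higher in VTA, against 2949 of all 15820 genes tested then. After the length correction 21 were higher in VTA and 9 in SNpc, where the shares of all genes were 16.2% and 14.9%.

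Nuclear partners of the Smads held the highest share higher in VTA, 8 of 10 tested genes (80.0%, against 20.4% of all genes). Higher in SNpc were 0 of 10, against 17.8% of all genes. After the length correction 7 were higher in VTA and 0 in SNpc, against 16.2% and 14.9% of all genes. The list had a median transcript length of 6.59 kb, and 48.4% of all genes in the longest length class were higher in VTA. The histone acetyltransferases Ep300 and Crebbp were at 351 ± 55.5 and 326 ± 49.4 CPM in VTA and at 117 ± 9.71 and 145 ± 9.28 CPM in SNpc. Their log2 fold changes were -1.59 (adjusted p = 1.12e-07) and -1.17 (4.49e-07). These are long transcripts of 9.57 and 10.8 kb, and after the length correction the values were -1.03 (7.81e-07) and -0.57 (2.27e-05). Of the signal relay genes, 6 of 15 were higher in VTA and 4 higher in SNpc (40.0% and 26.7%, against 20.4% and 17.8% of all genes). After the length correction the balance turned, with 3 higher in VTA and 5 higher in SNpc. Hipk2, a kinase that binds Smads, and Tab2, an adaptor of the TAK1 kinase, were higher in VTA, with log2 fold changes of -1.12 (8.34e-07) and -1.68 (3.14e-06). Fkbp1a, the FKBP12 protein that holds type I receptors inactive, was higher in SNpc at 588 ± 46.2 against 468 ± 55.5 CPM (0.33, adjusted p = 0.0118), and this call ended after the length correction (0.06, adjusted p = 0.6).

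Secreted antagonists and carriers were higher in VTA in 6 of 15 tested genes and higher in SNpc in 0 (40.0% and 0, against 20.4% and 17.8% of all genes). After the length correction 5 were higher in VTA and 0 in SNpc, against 16.2% and 14.9% of all genes. Fstl5, a follistatin-like protein, was at 56.9 ± 9.59 CPM in VTA and 27.2 ± 4.07 in SNpc (log2 fold change -1.06, adjusted p = 3.09e-05). Fstl3, which binds activins, had a log2 fold change of -1.55 (0.000198), but 47.3% of its exonic bases overlap Prss57 on the other strand. Twsg1, a BMP-binding protein and the most abundant of the list, was at 53.6 ± 8.59 and 42.4 ± 3.60 CPM (-0.34, adjusted p = 0.043), and this call ended after the length correction (adjusted p = 0.0767). In the list of latent complex and processing genes, 6 of 15 were higher in VTA and 1 in SNpc (40.0% and 6.67%, against 20.4% and 17.8% of all genes). After the length correction 2 were higher in VTA and 2 in SNpc, so the balance toward VTA was lost. Fbn1, the fibrillin that tethers latent TGF-beta, had a log2 fold change of -2.09 (8.31e-05), and 20.1% of its exonic bases overlap Gm9913 on the other strand. Lrrc32, the cell-surface anchor GARP, had -1.70 (0.00351). Ltbp1, a latent TGF-beta binding protein, was the gene of this list higher in SNpc (0.85, adjusted p = 0.00516). The most abundant gene there, the protease Tll1, was not called (0.49, adjusted p = 0.069), and after the length correction it was called higher in SNpc (0.66, adjusted p = 0.0222).

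Co-receptors were higher in VTA in 2 of 7 tested genes (28.6%, against 20.4% of all genes), a difference of less than 1 gene. Rgma, a BMP co-receptor, was at 82.1 ± 16.4 CPM in VTA and 45.5 ± 6.90 in SNpc (log2 fold change -0.85, adjusted p = 0.000189). Eng, the endothelial co-receptor endoglin, had a log2 fold change of -3.10 (adjusted p = 0.0152) and was at 9.70 CPM in VTA library 1, against at most 2.49 CPM elsewhere. The part of endothelial RNA in this value was not tested. Neo1, the receptor of Rgma, was the most abundant and was not called (0.27, adjusted p = 0.127). After the length correction it was called higher in SNpc (0.68, adjusted p = 0.000525). Of 12 tested transcriptional targets, 2 were higher in VTA and 1 in SNpc (16.7% and 8.33%), shares no higher than those of all genes (20.4% and 17.8%). Id4, an inhibitor of basic helix-loop-helix factors, was higher in VTA at 9.73 ± 1.90 against 4.52 ± 1.19 CPM (-1.11, adjusted p = 0.0021). Id2, of the same family, was the other (-0.73, adjusted p = 0.0179). Hey1, a repressor that also responds to Notch, was higher in SNpc at 81.9 ± 9.71 against 47.5 ± 10.7 CPM (0.79, adjusted p = 0.000604). Of 5 other ligands of the superfamily 0 could be tested, and Lefty1 was the most abundant at 0.509 ± 0.657 CPM in SNpc and 0.233 ± 0.297 in VTA.

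**Figure D5:**
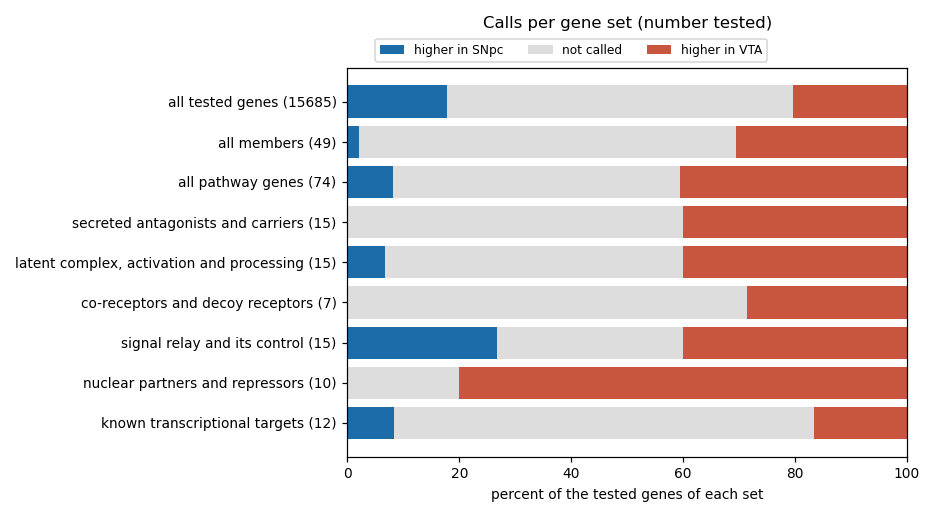
Percent of the tested genes of each list (x axis) that were called higher in SNpc, not called or called higher in VTA, with the number tested in brackets. The 49 genes have 30.6% higher in VTA and 2.04% higher in SNpc, against 20.4% and 17.8% of all genes, and the nuclear partners reach 80.0% higher in VTA.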

How the data were processed

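RNA from TRAP of SNpc and VTA dopaminergic neurons was amplified from a small input, which does not mark strand, and sequenced from single ends on an Illumina instrument, per the labels' protocols. Values are whole-number counts per gene as deposited by the authors, with no normalization. Reads were aligned with TopHat2 2.0.8 to mm10, per the submitters' processing notes. The sources used here do not name the counter, annotation, strand setting or filters. Reads of overlapping genes may therefore have been assigned in either way.

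SNpc columns 4 and 5, and VTA columns 2 and 3, held identical counts, differed by less than the sampling noise and were each counted as 1 library, which left 5 libraries per region. In edgeR 4.0.16 (R 4.3.3), filterByExpr kept 15685 of 23079 genes, TMM set the scale, and a robust quasi-likelihood test without covariates set SNpc against VTA. P-values were adjusted over all genes tested and called under 0.05. Lengths, coordinates and overlaps came from GENCODE on GRCm38. The length correction removed, per library, a spline of log2 CPM on transcript length and GC. Ratios of pairs used a pseudocount of 0.5 CPM. The scripts were tested on simulated data.

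Full values are given for up to 8 called genes per direction with the largest change and a mean of at least 1 CPM, and for the 6 most abundant per kilobase. Smad7 and Fst are given in every library by a choice made after their values were seen. Of other pathway lists the most abundant gene and the 2 called genes of smallest p are named, and Id2 and Ltbp1 besides. The members and lists were chosen with earlier results of these data known. Alternatives were another scale, DESeq2 1.42.0, other filters, the 12 columns, a glial covariate, length corrections, a block and libraries left out. Leaving out SNpc library 4 with VTA library 1, and the alternatives of the pairs, were added after seeing the data. The result of 1 marker list is not reported here.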

Additional observations from a re-analysis of the deposited data

Results flagged for a closer look

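In 3 groups of 5 libraries, 1 library stood apart from the others, by a gap of more than 0.71 of the range of the group. Of 28 groups examined, chance alone flags about 1 in 20.

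Smad3 was at 44.9 CPM in VTA library 4, with the next library at 12.04 CPM and a gap of 0.861 of the range. Tgfb2 was at 4.72 CPM in SNpc library 4, with the next at 1.78 CPM and a gap of 0.77 of the range. Gdf1 was at 38.5 CPM in VTA library 4, with the next at 32.0 CPM and a gap of 0.716 of the range.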

How the results depend on the processing

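The 15 calls higher in VTA became 12 to 20 in the 21 alternatives, the lowest with the glial covariate and the highest with the 12 columns as deposited, and 13 to 18 with 1 library left out. Calls over all genes moved as well. Higher in VTA were 3203 of 15685 genes in the main test and 2474 of 15685 with the glial covariate. With the 12 columns they were 3794 of 15738, and with 1 library left out 2790 of 15803 to 3193 of 15904. Of the 15 genes, 11 kept their call in every alternative that tested them. The other 4 were Smad6, Smad3, Bmp6 and Inhba. The 1 call higher in SNpc became 0 with library totals, 4 with either length correction and 0 to 1 with 1 library left out. Of all 15685 genes, 2793 were higher in SNpc in the main test, 2395 with library totals and 2340 and 2553 with the length corrections. With 1 library left out they were 2284 of 15803 to 3317 of 15904. Among the 33 genes not called, 11 besides Bmpr2 gained a call in some alternative. Bmpr2 turned to 0.38 and 0.40 after the length corrections with the scale kept and refitted. The 6 pathway genes higher in SNpc became 3 with the glial covariate and 6 to 8 with 1 library left out, and the 30 higher in VTA became 25 to 30 with 1 library left out and 21 to 35 over all alternatives. Over all alternatives, 2022 of 15685 to 3794 of 15738 of all genes tested were higher in VTA. With the glial covariate 1880 of 15685 were higher in SNpc. The 12 ratios of pairs kept their direction and their side of the threshold. These pairs were picked with their values known, and a ratio within a library hardly depends on its scale. Their stability therefore adds no support. The causes of these changes were not tested.

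Same-numbered libraries did not deviate together (correlations of -0.0723 to 0.0443 over 4 numbers, with 1 SNpc library best matched by its own number). So few weak correlations cannot show whether same-numbered libraries came from the same animals. For the merged columns it is also unknown which number is the right one. With the replicate block, 0 members were higher in SNpc and 13 higher in VTA, and 3 and 24 pathway genes. Of all 15685 genes, 1814 and 2571 were called then. With the block and the length correction, 2 members were higher in SNpc, against 1696 of all 15685 genes, and Bmpr2 was at 0.40. Counts limit the scarce genes, since those under 1 CPM had a median standard error of 0.98.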
